A study of Mus musculus with 2 samples.

Results

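The genes described here set the balance between clot formation and clot removal at the vessel wall: thrombomodulin (Thbd), the endothelial protein C receptor (Procr), the tissue factor pathway inhibitors Tfpi and Tfpi2, tissue factor (F3), the thrombin receptor F2r, the plasminogen activators Plat and Plau, and the urokinase receptor Plaur. They were chosen by name, with results of these data known, and every array probe whose gene name was one of the 9 symbols was taken. This gave 18 probes for 9 of the 27380 genes or transcripts on the array, and 13 of the probes, for 8 of the 9 genes, were bright enough to be kept. No kept or dim probe of these genes was saturated.

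The study compared RNA from an atherosclerosis-prone stretch of mouse aorta, called arch here (the root of the aorta, its arch and the 2 mm that follow), with an atherosclerosis-resistant stretch, the central thoracic aorta (the next 6 mm). Both came from wild-type C57Bl/6 mice, an inbred laboratory strain, aged 16 weeks, and all aortas had been flushed with the detergent Triton X-100 to strip the endothelium. For each region the RNA of 6 mice, 3 of either sex, was combined into 1 pool, so the spread between animals was not measured. Both pools were hybridised together to an Agilent mouse array that reads 2 dyes, and again to another with the dyes exchanged: the arch carried Cy5 on array 1 and Cy3 on array 2. The arrays are technical repeats and count as 1 replicate: every ratio below is log2 of arch over thoracic aorta, given as the mean ± the distance of each array from it, an error that covers labelling and hybridisation only. A gene was called when both arrays gave at least 1.5-fold with the same sign, and no test or p-value is possible. In RNA from whole tissue, fewer cells of a type and less RNA per cell cannot be told apart.

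Coagulation starts when tissue factor, a membrane protein of cells outside the blood, meets circulating factor VII, and it ends in thrombin, which cuts fibrinogen to fibrin. Thrombomodulin binds thrombin and turns it towards activating protein C, an anticoagulant, on the endothelial protein C receptor, while Tfpi blocks the complex of tissue factor and factor VIIa. Thrombin also signals to smooth muscle and other cells through F2r, the protease-activated receptor PAR1, and fibrin is removed by plasmin, which Plat and Plau make from plasminogen.

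RefSeq gene starts (GRCm38.p6) were at hand for 6 of the 9 genes: Procr, Tfpi, Tfpi2, F3, F2r and Plaur. Thbd, Plat and Plau are named only. Of the 250 bases before each start, those of F3 and F2r are printed, 5′ to 3′ on the gene's strand, because these genes had the largest ratios of the 6, in opposite directions, and their windows share a motif. Capitals mark TGAGTCA, the core of the AP-1 motif. The F3 window is chr3:121723287-121723536 on the plus strand and the F2r window is chr13:95618467-95618716 on the minus strand.
F3: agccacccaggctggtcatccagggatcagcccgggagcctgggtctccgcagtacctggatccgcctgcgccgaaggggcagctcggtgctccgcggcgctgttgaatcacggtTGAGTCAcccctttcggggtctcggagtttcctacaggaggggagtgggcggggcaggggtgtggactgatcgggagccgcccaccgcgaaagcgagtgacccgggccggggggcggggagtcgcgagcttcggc
F2r: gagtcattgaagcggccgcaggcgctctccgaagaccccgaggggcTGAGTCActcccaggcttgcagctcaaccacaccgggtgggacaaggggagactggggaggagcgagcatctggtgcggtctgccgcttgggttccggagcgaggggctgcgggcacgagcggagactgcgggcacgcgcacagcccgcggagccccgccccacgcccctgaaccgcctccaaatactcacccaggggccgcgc
The motif starts 135 bases before the F3 start and 204 bases before the F2r start. It was picked after the windows had been read, and it was searched as TGAGTCA or its reverse complement TGACTCA, so on both strands. Procr holds TGACTCA 154 bases and Plaur 69 bases before the start, while the windows of Tfpi and Tfpi2 hold neither word. It is thus in 4 of the 6 genes, against 1395 of 27025 genes (5.16%) and 4.46% of all 32851 windows of the same length. The other motifs searched were CACCC or GGGTG, a KLF box, and GGGCGG or CCGCCC, a GC box. Each was in 5 of the 6 genes, F3 and F2r among them, against 54.5% of all genes for the KLF box and 35.4% for the GC box. In F3 a CACCC shares 2 bases with the capitals. The letters are 70.0% G or C in the F3 window and 70.8% in the F2r window. Of the 4 genes with the motif, F3 and Procr had ratios below 0 and F2r and Plaur above 0.

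Thrombomodulin had the largest ratio of the 8 measured genes. The processed signal of its single probe, the scanner software's background-subtracted and dye-normalised intensity, was 21848 units on array 1 and 21658 on array 2 in the arch, against 9900 and 10164 in the thoracic aorta. Both arch readings were above both thoracic readings, and neither pool moved much with the dye. The ratio was 1.05 on array 1 and 1.03 on array 2, a mean of 1.04 ± 0.01 or 2.06-fold higher in the arch. Among the 21367 measured genes this was the 12th highest. The scanner software's error for its own ratio of this probe was 0.18 on the log2 scale on each array, which is wider than the gap between the arrays. Thbd was the only one of the 8 measured genes called higher in the arch, and 0.257% of all measured genes were called higher. None of the 8 was called lower, against 0.229% of all genes. Since the genes were chosen with this contrast known, nothing is read from these shares.

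Procr, which presents protein C to the thrombin and thrombomodulin complex, did not share the ratio of Thbd. Its signal was 5239 and 5780 units in the arch, against 6129 and 6442 in the thoracic aorta. Every arch reading was below every thoracic reading, by a small margin. The ratio was -0.17 ± 0.03, 1.13-fold lower in the arch, and did not reach the call. Within an array the log2 ratio of Thbd exceeded that of Procr by 1.26 on array 1 and 1.16 on array 2. This difference between the 2 genes' ratios does not depend on how an array is centred as a whole.

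Tfpi, the circulating and cell-bound inhibitor of the tissue factor complex, was even between the regions. Its brightest probe, A_52_P670263, read 2852 and 2433 units in the arch, against 2639 and 2840 in the thoracic aorta. The readings overlapped, and the ratio changed sign between arrays, 0.10 on array 1 and -0.18 on array 2 (mean -0.04 ± 0.14). The other kept probes gave 0.00 ± 0.04 (A_52_P631889) and -0.05 ± 0.02 (A_52_P592007). Their signals lay between 203 and 299 units in both pools. The scanner's error for its own ratios of these probes was 0.87 to 1.31, so they add little. A further 2 probes, A_51_P383210 and A_52_P191353, were not well above background in any channel.

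Tfpi2, a matrix-bound inhibitor of plasmin and of the tissue factor complex, could not be measured. Its probe read 137 and 134 units in the arch, against 140 and 165 in the thoracic aorta, and was well above background in 2 of 4 channels, both of them Cy3. Neither pool passed on both arrays, so no ratio is given.

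**Figure D1:**
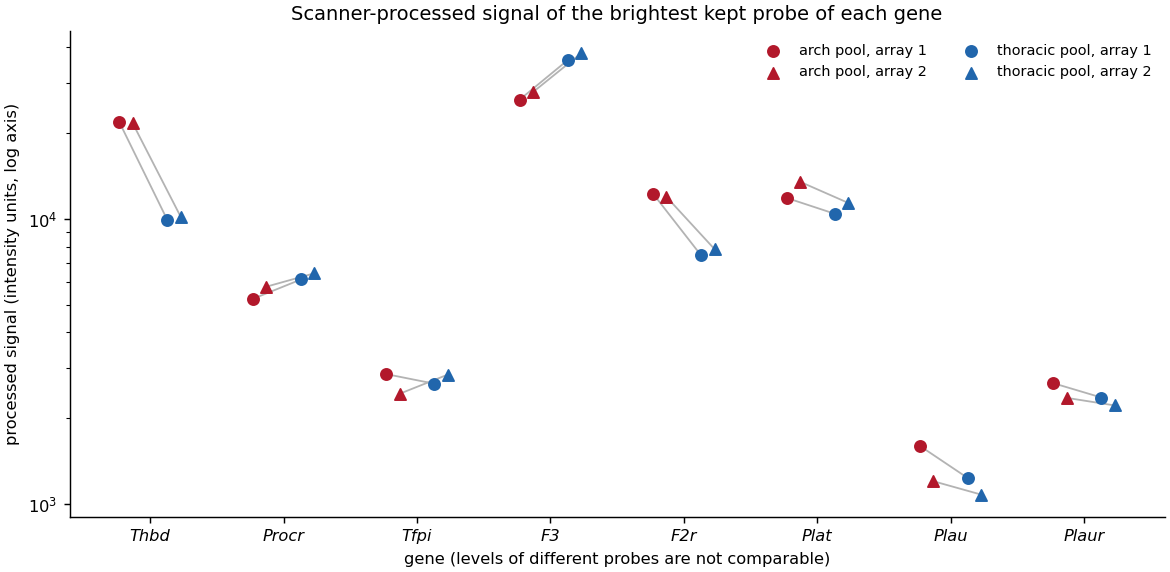
Scanner-processed signal (intensity units, log axis) of the brightest kept probe of each of the 8 measured genes, with arch pools in red left of thoracic pools in blue, circles for array 1 and triangles for array 2, and a line joining the pools of an array. Thbd at 21848 and 21658 units in the arch stands above 9900 and 10164 in the thoracic aorta, while F3 at 26236 and 27890 in the arch stands below 36115 and 38147.

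Tissue factor was lower in the arch by a smaller amount that repeated closely. Its brighter probe, A_51_P236846, read 26236 and 27890 units in the arch, against 36115 and 38147 in the thoracic aorta. The second probe, A_52_P683413, read 20523 and 21434 units in the arch, against 27397 and 28812 in the thoracic aorta. For both probes every arch reading was below every thoracic reading. The ratios were -0.45 and -0.44 on the 2 arrays for the first probe (mean -0.44 ± 0.01, 1.36-fold lower) and -0.40 and -0.41 for the second (mean -0.41 ± 0.00, 1.33-fold lower). The 2 probes of F3 thus gave the same direction and nearly the same size. When each array was centred on its median with no loess curve, the first probe gave -0.52 and -0.71, so the close repeat depends on the normalisation. The scanner's error for its own ratio of this probe was 0.17 on each array. F3 ranked 110th from the lowest of 21367 genes, but it stayed under 1.5-fold on both arrays and was not called. The log2 ratio of Thbd exceeded that of F3 by 1.48 on average.

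F2r, through which thrombin acts on smooth muscle cells and fibroblasts, was higher in the arch. Its probe read 12253 and 11948 units in the arch, against 7440 and 7835 in the thoracic aorta. The pools did not overlap, and both dyes gave the same order. The ratio was 0.64 on array 1 and 0.55 on array 2, a mean of 0.60 ± 0.05 (1.51-fold), 67th highest of all measured genes. Array 2 fell just short of the log2 value of 0.585 that 1.5-fold requires, so F2r was not called. With the background offset of 0 in place of 50, and with the scanner software's ratios, it was called, at 0.65 ± 0.05 and 0.66 ± 0.06. When each array was centred on its median with no loess curve, the mean was 0.44 and the gene was not called. F2r exceeded F3 in log2 ratio by 1.09 on array 1 and 0.99 on array 2.

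**Figure D2:**
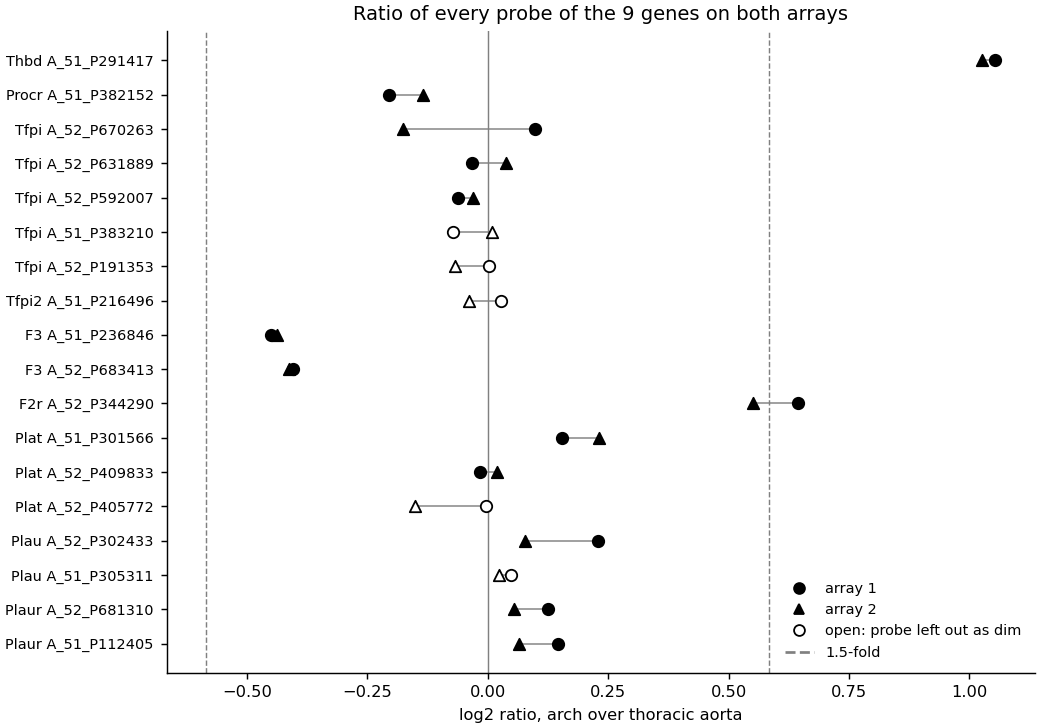
Log2 ratio of arch over thoracic aorta for each of the 18 probes (rows) on array 1 (circles) and array 2 (triangles), with open symbols for probes left out as dim and dashed lines at 1.5-fold. The probe of Thbd lies beyond the line on both arrays, that of F2r on array 1 alone at 0.64 against 0.55 on array 2, and the 2 probes of F3 lie together between -0.45 and -0.40.

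Of the fibrinolytic genes, none was called, and the brightest probes of all 3 had means slightly above 0. Plat, tissue plasminogen activator, read 11853 and 13512 units in the arch, against 10429 and 11394 in the thoracic aorta, with probe A_51_P301566. On each array the arch was the brighter pool, and the ratio was 0.19 ± 0.04 (1.14-fold). A second Plat probe, A_52_P409833, read 2139 and 2594 units in the arch, against 2204 and 2492 in the thoracic aorta, a ratio of 0.00 ± 0.02. The probes of Plat therefore differed by more than the gap between arrays, and no direction is given for the gene. The remaining probe, A_52_P405772, was dim in all 4 channels.

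Plau, urokinase, read 1595 and 1200 units in the arch, against 1229 and 1076 in the thoracic aorta (A_52_P302433). The arch reading of array 2 lay below the thoracic reading of array 1, so the pools overlapped across arrays. The ratio was 0.23 on array 1 and 0.08 on array 2 (mean 0.15 ± 0.07). The scanner software's own ratios were 0.38 and 0.16, against its errors for them of 0.25 and 0.27, so only array 1 exceeded its error. Its other probe, A_51_P305311, was dim in all channels.

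Plaur, the receptor that holds urokinase at the cell surface, read 2649 and 2354 units in the arch, against 2360 and 2213 in the thoracic aorta, with probe A_52_P681310. The second probe, A_51_P112405, read 1533 and 997 units in the arch, against 1296 and 903 in the thoracic aorta. Signals of the second probe moved more between arrays than between pools. The mean ratios were 0.09 ± 0.04 and 0.10 ± 0.04. The scanner software's own ratios for the 2 probes, 0.09 to 0.24 on single arrays, were each inside its error for them, 0.19 to 0.30. When arrays were centred on the median with no loess curve, the brighter probe gave -0.01, so the sign of Plaur depends on the normalisation.

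Set among all genes, Thbd, F2r and F3 lay in the tails and the other 5 measured members in the main cloud. The 8 measured members had a median ratio of 0.12, 5 of 8 were above 0, and 7 of 8 had the same sign on both arrays, Tfpi being the exception. All 21367 measured genes had a median of 0.00, 51.5% were above 0 and 54.8% had the same sign on both arrays. The distance of each array from the mean had a median of 0.04 and a 95th percentile of 0.13 over all genes, so that of Tfpi (0.14) was large and that of F3 (0.01) small.

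**Figure D3:**
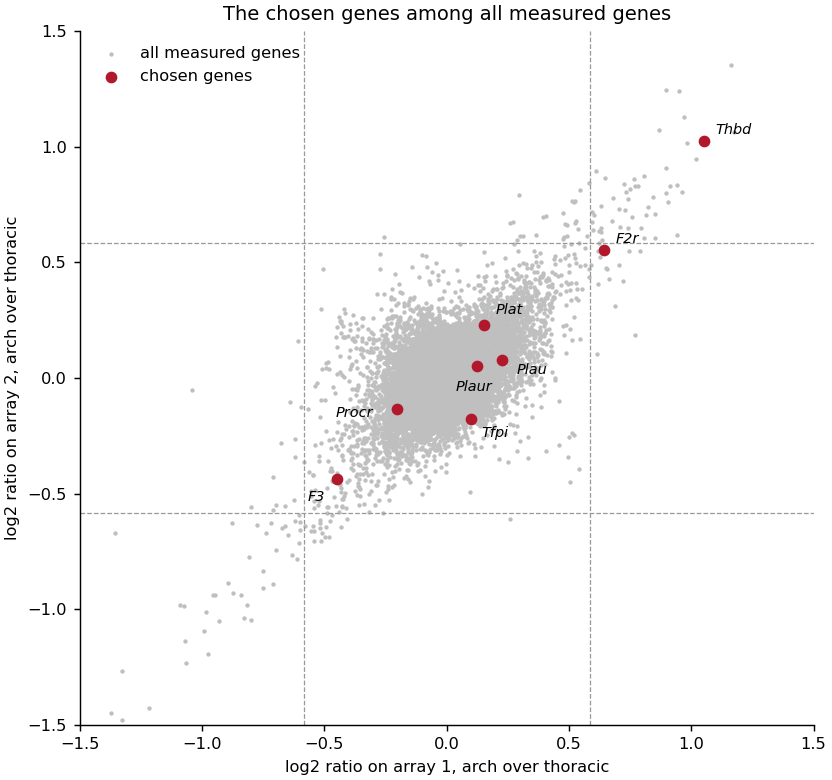
Log2 ratio of arch over thoracic aorta on array 1 (x axis) and array 2 (y axis) for all measured genes (grey) and the 8 measured chosen genes (red), with dashed lines at 1.5-fold on each axis and 15 genes outside the axes. Thbd lies in the upper right corner at 1.05 and 1.03, F2r on the edge of the called area, F3 in the lower left at -0.45 and -0.44, and Tfpi in the lower right with opposite signs.

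The normalisation moved the larger ratios without turning them. Over 11 alternative settings, Thbd had means from 0.87 with median centring to 1.12 with the ratios of the series' value table, and it was called in all 11. Several of these could not change its call. Each array alone and 1.3-fold ask less than the main rule, and the mean over probes and other filters reuse its single bright probe. The value table repeats the scanner software's ratios. An offset of 0, the scanner's ratios, median centring and 2-fold could have changed the call, and Thbd was called in each. F2r ranged from 0.44 to 0.66 and was called in 5 of 11. F3 ranged from -0.61 with median centring to -0.43 with the mean over probes, and it was called in 1 of 11, the setting with a 1.3-fold threshold. The gap between the log2 ratios of Thbd and F3 averaged 1.48 with the main processing and 1.49 with median centring. It was 1.56 with an offset of 0 and 1.57 with the scanner's ratios.

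The chosen genes that were called can be set beside the background of each setting. Thbd and F2r were called higher with an offset of 0 (0.548% of all genes higher, 0.487% lower) and with ratios taken from the scanner software or from the value table (0.711% higher, 0.599% lower). At 1.3-fold they were joined by F3 as the 1 gene called lower (0.627% higher, 0.524% lower). Array 1 alone also called both genes (0.337% higher, 0.29% lower), while array 2 alone called Thbd (0.379% higher, 0.314% lower). Thbd was the only one of them called with median centring (0.131% higher, 0.351% lower), with the mean over probes (0.197% higher, 0.192% lower) and at 2-fold (0.0421% higher, 0.0702% lower). The same held with no filter on dim probes (0.201% higher, 0.179% lower) and with probes well above background in both regions (0.272% higher, 0.243% lower). The genes were chosen on this contrast, so these shares are a description.

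**Figure D4:**
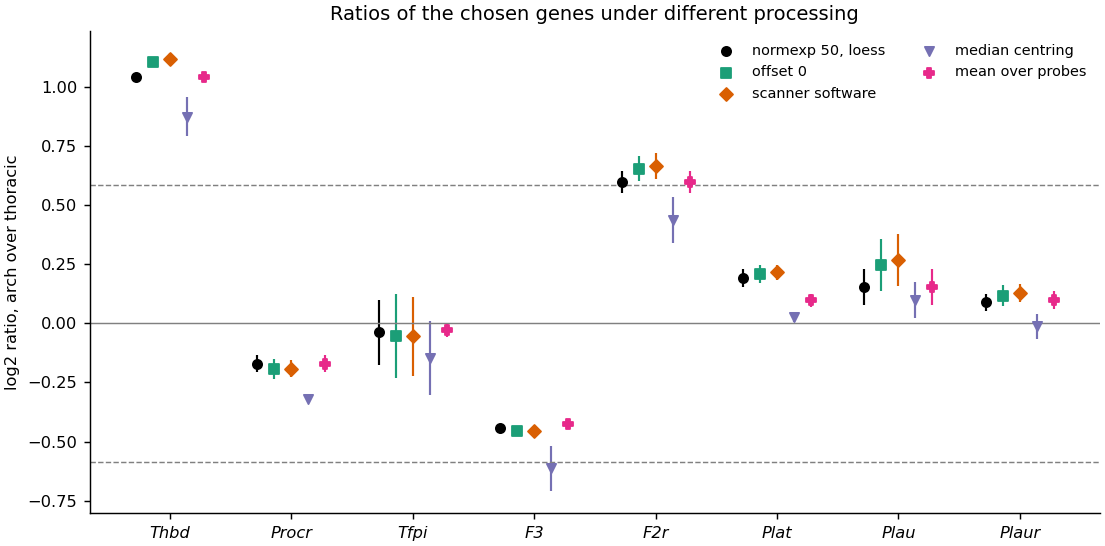
Mean log2 ratio of arch over thoracic aorta of the 8 measured genes (x axis) under 5 ways of processing (colours and symbols), with bars for the distance of each array from the mean and dashed lines at 1.5-fold. Thbd stays between 0.87 and 1.12 and F3 between -0.61 and -0.43, while Plaur falls just under 0 with median centring.

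The other genes of coagulation and fibrinolysis were described from a list of 55, of which 50 were measured. None was called in either direction, 26 of 50 had ratios above 0, and the median was 0.01, with a range from -0.48 to 0.38. With median centring 20 of 50 were above 0. F5, F8, Klkb1, F2rl1 and Adamts13 were not measured. F2rl1, the related receptor PAR2, read 77.9 and 48.5 units in the arch, against 55.1 and 70.2 in the thoracic aorta, above background in 0 of 4 channels.

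The highest ratios of the list stayed under 1.5-fold and belonged to genes of different roles. Gas6, a vitamin K-dependent ligand of TAM receptors, had 0.38 ± 0.04, with 112011 and 125792 units in the arch, against 89603 and 94544 in the thoracic aorta. Proz, the cofactor protein Z, had 0.37 ± 0.05 with one probe and 0.06 with the other. Vwf, the platelet-binding protein stored in endothelium, had 0.26 ± 0.02 with the brighter probe and 0.12 with the second. Lrp1, an endocytic receptor that clears plasminogen activator complexes and Tfpi, had 0.21 ± 0.10, with a second probe at 0.03. Nt5e, which makes adenosine from AMP, had 0.21 ± 0.03 with the brighter probe and -0.03 with the other. F7, the partner of tissue factor, had 0.19 ± 0.08.

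The lowest ratios belonged to a protease inhibitor, an ectonucleotidase and proteins made mainly in liver. Serpine2 (protease nexin-1), an inhibitor of thrombin and urokinase, read 4441 and 5380 units in the arch, against 7300 and 7075 in the thoracic aorta. Its ratio was -0.62 on array 1 and -0.34 on array 2 (mean -0.48 ± 0.14), so only array 1 passed 1.5-fold. The fibrinogen chains Fgb and Fgg had -0.48 ± 0.05 and -0.42 ± 0.13, antithrombin (Serpinc1) -0.38 ± 0.09 with a second probe at 0.02, and kininogen (Kng1) -0.37 ± 0.05. Entpd1, the ectonucleotidase CD39 that breaks down ADP, had -0.28 ± 0.03, with a second probe at -0.19. With the scanner software's ratios Fgb, Fgg, Kng1 and Serpinb2 were called lower and Nt5e higher.

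A cofactor of protein C and regulators of Thbd showed no large ratio. Pros1, the cofactor protein S, had 0.03 ± 0.07, with a second probe at -0.05. Klf2, a flow-responsive factor known to raise Thbd in endothelium, read 44294 and 38937 units in the arch, against 36536 and 39269 in the thoracic aorta, and its ratio of 0.13 ± 0.14 changed sign between arrays. Its relative Klf4 had -0.07 ± 0.04.

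Markers of cell types in which these genes are known were read on the same arrays. Of all 27380 genes on the array, 21367 were measured and 20186 had a probe well above background in all 4 channels. Of 12 endothelial markers in these stripped aortas, Tie1 was not measured. The 11 others were measured, 10 of them well above background in all 4 channels. Their summed signal was 10277 and 10268 units in the arch, against 9641 and 9478 in the thoracic aorta, with 7 of 11 above 0, none called and a median of 0.06 (0.01 with median centring and 0.09 with the scanner software's ratios). Of these, Emcn had 0.25 ± 0.02 and Kdr 0.18 ± 0.05. Cldn5 had 0.06 ± 0.10 and Esam -0.16 ± 0.02. Pecam1 and Cdh5 were dim. Pecam1 read 234 and 306 units in the arch, against 240 and 343 in the thoracic aorta, a ratio of -0.02 ± 0.05. Cdh5 read 188 and 259 units in the arch, against 215 and 312 in the thoracic aorta, a ratio of -0.05 ± 0.02. Thbd is also known from mesothelium, the outer lining of serous surfaces. All 9 mesothelial markers were measured and all 9 were above 0, with a median of 0.38 and none called. With the scanner software's ratios the median was 0.73, and with median centring it was 0.28. The scanner's ratios called 5 of 9 higher (Upk3b, Krt19, Wt1, Upk1b and Bnc1), against 0.711% of all genes. Their summed signal was 27996 and 30798 units in the arch, against 18766 and 20404 in the thoracic aorta, and Msln had 0.54 ± 0.05 and Upk3b 0.65 ± 0.12. Every measured marker of the 2 lists gave a signal above 0 in both pools. So did F2rl1, which was not above background in any channel, so this does not show that the cells were present. The part of endothelial and mesothelial cells in the ratio of Thbd was not tested.

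Platelet, macrophage, smooth muscle, fibroblast and fat markers were read in the same way. Of 9 measured platelet markers 7 were above 0, with a median of 0.12 (0.29 with an offset of 0 and 0.30 with the scanner's ratios), and their summed signal was 66731 and 68975 units in the arch, against 66097 and 76370 in the thoracic aorta. Pf4 had -0.28 ± 0.09 and Ppbp 0.38 ± 0.03. All 11 macrophage markers were below 0, none called, with a median of -0.16 (-0.29 with median centring) and sums of 412979 and 381070 units in the arch, against 478533 and 499082 in the thoracic aorta. Of 8 smooth muscle markers 3 were above 0 (0 of 8 with median centring), with a median of -0.05 (-0.21 with median centring). Acta2, the contractile actin of smooth muscle, had 0.02 ± 0.11, and its 5 probes ranged from -0.19 to 0.02. In Cy5 its brightest probe read 1009450 units in the arch on array 1 and 899287 in the thoracic aorta on array 2. Tagln, another marker of this list, read 1007390 and 898065 in the same channels. Readings this close can mark the scanner's ceiling, where ratios are compressed. Saturation is not reported here for the marker lists. Of 8 adventitial fibroblast markers 5 were above 0 (2 of 8 with median centring) and none was called, with a median of 0.04 (-0.13 with median centring). Their sums were 1230660 and 1262700 units in the arch, against 1179100 and 1256460 in the thoracic aorta. In this list Pdgfra had 0.55 ± 0.15 with a second probe at 0.01, Lum 0.55 ± 0.06, and Col1a1 -0.30 ± 0.01 with another probe at 0.00. All 7 fat markers were above 0, with a median of 0.45 (0.28 with median centring). Of these, 2 (Adipoq and Plin1) were called higher, against 0.257% of all genes. Their sums were 686132 and 676055 units in the arch, against 526741 and 540707 in the thoracic aorta. All of the measured markers gave a signal above 0 in both pools, which undetected probes such as that of F2rl1 also did. The part of these cell types in the ratios of Thbd, F2r and F3 was not tested.

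**Figure D5:**
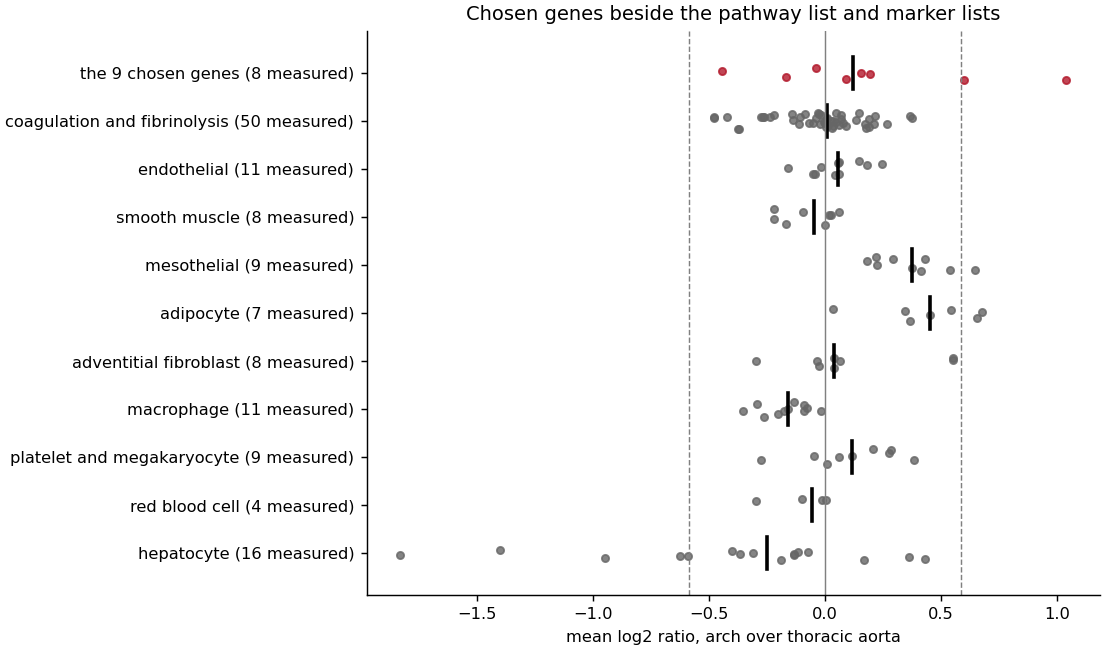
Mean log2 ratio of arch over thoracic aorta (x axis) of each measured gene of the chosen set (red) and of the pathway and marker lists (grey), with a black bar at each list's median and dashed lines at 1.5-fold. The chosen genes spread from -0.44 (F3) to 1.04 (Thbd), and the 50 other coagulation and fibrinolysis genes from -0.48 to 0.38. With the scanner software's ratios the chosen genes ran from -0.46 (F3) to 1.12 (Thbd) and the others from -1.05 (Kng1) to 0.75 (Nt5e). Which set spread wider thus depends on the processing, and the chosen genes were picked with this contrast known.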

How the data were processed

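Both dye-swapped hybridisations were used. Per the submitters' processing notes, Agilent Feature Extraction 9.1.1.1 read the scans. The files hold, per the file headers, a mean, background and processed intensity for every spot and dye. The deposited log10 ratio is of Cy5 over Cy3. The deposited series value table gave the same values as arch over thoracic ratios for 99.9% of features of each array (tolerance 1e-06), with both column medians at 0, and its scale and direction were found from this match, since they are not stated with it.

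From the deposited intensities, log2 ratios were computed with limma 3.58.1 in R 4.3.3: normexp background correction with an offset of 50, then loess within each array, control spots at weight 0. Spots flagged as outliers were left out (20 and 4), the sign of array 2 reversed, and repeated spots averaged per probe. Probes passed if 1 region or both were well above background on the 2 arrays (30521 of 41150), and a gene took its brightest kept probe. The offset shrinks the ratios of dim probes. With 2 technical arrays of 1 pool per region, no precision over animals can be given. Ratios correlated between arrays across genes with r = 0.581 (Spearman 0.248), and genes are not independent replicates. Names came from the files, updated through RefSeq (GRCm38.p6), by accession for 22838 probes and by name or synonym for 10220, while 8074 kept the file's name. RefSeq windows before gene starts were searched for motifs. Array probe positions are not given, since the array files name no build.

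The chosen genes and all lists were picked with earlier results of these data known. Named were every probe of the chosen genes, the called genes and the 6 with the largest ratios in each direction of the pathway list, Vwf, Pros1, F2rl1, Klf2 and Klf4, and up to 4 bright genes per marker list. Serpinb2, Plin1, Emcn, Pecam1, Cdh5, Krt19, Wt1, Upk1b, Bnc1, Pdgfra, Fabp1, Ahsg and Cyp2e1 were named after their values were seen. Not every pick of the rule is reported here. Alternatives were an offset of 0, median centring, the scanner's ratios, the value table, the mean over probes, other filters, thresholds of 1.3-fold and 2-fold, and each array alone.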

Additional observations from a re-analysis of the deposited data

How the results depend on the processing

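Counts of calls changed with the background treatment, the normalisation and the threshold. All genes called higher and lower numbered 55 and 49, against 117 and 104 with an offset of 0, 152 and 128 with the scanner software's ratios and likewise with the value table, 28 and 75 with median centring, 134 and 112 at 1.3-fold, and 9 and 15 at 2-fold. On single arrays the higher calls numbered 72 to 81 and the lower ones 62 to 67. Median centring thereby made 27.2% of calls higher ones, against 52.9%. Of the 8 measured chosen genes, 1 was called higher, against 2 (Thbd and F2r) with an offset of 0, the scanner's ratios, the value table or 1.3-fold, and 1 to 2 on single arrays. The count called lower was 0, or 1 (F3) at 1.3-fold, and 0 on single arrays. Of the 50 pathway genes, 0 were called higher, or 1 (Nt5e) with the scanner's ratios or the value table. Called lower were 0, against 3 with an offset of 0 (Fgb, Kng1 and Serpinb2), 4 with the scanner's ratios or the value table, 1 (Fgb) at 1.3-fold and 0 to 1 (Serpine2) on single arrays. The offset of 50 shrinks the ratios of dim probes. Kng1, for example, had -0.37 with it, -0.96 with an offset of 0 and -1.05 with the scanner's ratios. The cause of the changes in the counts was not tested. No called value changed its direction, while Tfpi and Plaur, which were not called, crossed 0. Under these settings Thbd was called in 11 of 11, though several of them could not change its call. No paired analysis was possible because no test was made: each within-array ratio already sets one pool against the other, and there is 1 pool per region. The arrays are technical repeats, so the spread between animals is unknown, and the ratios of probes near background (Tfpi2, the dim probes of Tfpi, Plat and Plau) are not measured.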

Other observations

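After the low ratios of Fgb, Fgg, Serpinc1 and Kng1 in the arch were seen, 18 genes of liver cells were listed and read. Of these, 16 were measured, 3 were above 0, and 4 were called lower in the arch, against 0.229% of all genes. The list was made after low ratios had been seen, so this count is a description. Mup1, a major urinary protein, had 3 kept probes from -1.83 to -0.64. The brightest had -1.83 ± 0.09, with 10708 and 11127 units in the arch, against 38153 and 44748 in the thoracic aorta. Mup4 had -1.40 ± 0.08, albumin (Alb) -0.95 ± 0.01 and Fabp1 -0.63. The median was -0.25, or -0.37 with median centring and -0.52 with the scanner software's ratios. With the scanner's ratios 6 were called lower, against 0.599% of all genes. The summed signal was 143900 and 137141 units in the arch, against 182032 and 198692 in the thoracic aorta. The 3 above 0 were Rbp4 at 0.17 ± 0.13, Ahsg at 0.36 ± 0.13 and Cyp2e1 at 0.43 ± 0.07. Every measured gene of the list gave a signal above 0 in both pools, which undetected probes such as that of F2rl1 also did. The part of liver genes in the ratios of the fibrinogen chains, antithrombin and kininogen was not tested.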
